A study of Mus musculus with 8 samples.

Results

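The smooth muscle contractile genes examined here are 10 genes listed for myofibroblasts, though not all are specific to these cells. The 10 genes are Acta2, Tagln, Cnn1, Myl9, Tpm1, Tpm2, Cald1, Actg2, Myh11 and Lmod1. They were taken from the deposited table by gene symbol, without regard to their values. A value was read for 9 of the 10 genes, of 12589 rows in all, and none was found for Myh11. RNA-seq was performed on cultures of mSSC, a stromal cell line derived from mouse spleen that carries a yellow fluorescent protein (the labels name it mSSC-YFP). The labels list 4 cultures treated with the vehicle DMSO and 4 cultures treated with BMS493, an inhibitor of retinoic acid (RA) signaling, each for 48 h in medium with fetal bovine serum. All cultures come from 1 line, and no source states whether they were grown independently.

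The measurement used is the mean of log2 normalized expression over all samples, so that every value below is an authors' mean in which vehicle and BMS493 cultures are mixed. No value of a single culture was analysed here, and the mean therefore comes with no SD, no n and no depth per library. The table's other columns hold the authors' own comparison of BMS493 with DMSO. They were not used, and no difference between the treatments is given. In bulk RNA, a level also cannot tell fewer expressing cells from less RNA per cell. What the values describe is how strongly the stromal line expressed each contractile gene, and how these levels compare with those of related genes.

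In smooth muscle, actin filaments slide along myosin when the regulatory light chain of myosin is phosphorylated, and calponin, caldesmon and tropomyosin sit along the filament and tune this movement. Fibroblasts that become myofibroblasts build the same filaments into stress fibres, which lets them pull on the matrix around them. The genes are known targets of serum response factor (SRF), which binds the CArG box, a pair of C, a run of A or T and a pair of G, together with coactivators of the myocardin family. Fibroblastic reticular cells of spleen and lymph nodes are contractile and commonly express alpha smooth muscle actin.

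Actins are so alike that their reads could be confused, which is why the ends of their coding sequences are shown. The following are the last 60 coding bases, stop codon included, of the smooth muscle actins Acta2 and Actg2 and of the cytoplasmic actins Actb and Actg1, read 5′ to 3′ from GENCODE M21 transcripts on GRCm38. Capitals mark bases that differ from Acta2 at the same place.
Acta2 (chr19:34241667-34241726, minus strand): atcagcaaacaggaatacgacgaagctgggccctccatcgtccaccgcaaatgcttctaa
Actg2 (chr6:83512985-83513044, minus strand): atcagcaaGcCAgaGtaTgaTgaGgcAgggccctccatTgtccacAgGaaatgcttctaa
Actb (chr5:142903798-142903857, minus strand): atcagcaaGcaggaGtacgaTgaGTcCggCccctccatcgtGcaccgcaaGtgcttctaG
Actg1 (chr11:120346390-120346449, minus strand): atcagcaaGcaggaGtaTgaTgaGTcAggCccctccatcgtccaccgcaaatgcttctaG
Within this stretch Actg2 differed from Acta2 at 11 bases, Actb at 10 and Actg1 at 9. Over the aligned coding sequence, Acta2 was 84.4% identical to Actg2, 83.2% to Actb and 81.9% to Actg1.

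Although alike, these actins shared no stretch of read length with one another in the annotated transcripts. Near matches and parts of the genome outside annotated transcripts were not searched. The libraries were read from one end for 100 cycles, and only uniquely mapped reads were counted. Of the 2096 distinct stretches of 100 bases in Acta2 transcripts, 0 occurred in a transcript annotated at another place in the genome. For Actg2 it was 0 of 1607 stretches, and among all 10 contractile genes 0 had a shared stretch. By contrast, 29.9% of the stretches of Actg1 were also found in 6 other annotated genes, all of them pseudogenes. For the non-muscle tropomyosin Tpm3 the share was 15.8%, and for Tpm4 it was 7.37%. Reads from a shared stretch have no unique place, so each of these counterparts is also given for the length that remains without shared stretches.

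Acta2, which encodes alpha smooth muscle actin, had the highest level of the contractile genes. It lies on chr19:34241090-34255590 of GRCm38, the build of all positions here. Its mean was 11.53 on the log2 scale as deposited, and 10.39 on the log2 scale per kb of annotated exon, the scale on which genes are compared below. Per kb, only 12 of the 12368 genes with an annotated length were higher, which places Acta2 at percentile 99.9. On a linear scale close to CPM, 2 raised to the deposited mean was 2953 for Acta2, or 0.299% of the sum over all genes of the table. A single muscle actin gene thus made up 32.7% of the summed level of the 9 contractile genes. Together the 9 genes made up 0.914% of the table's sum, and the 3 with the highest deposited means, Acta2, Tpm1 and Cald1, made up 82.4% of the 9 genes' share.

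**Figure D1:**
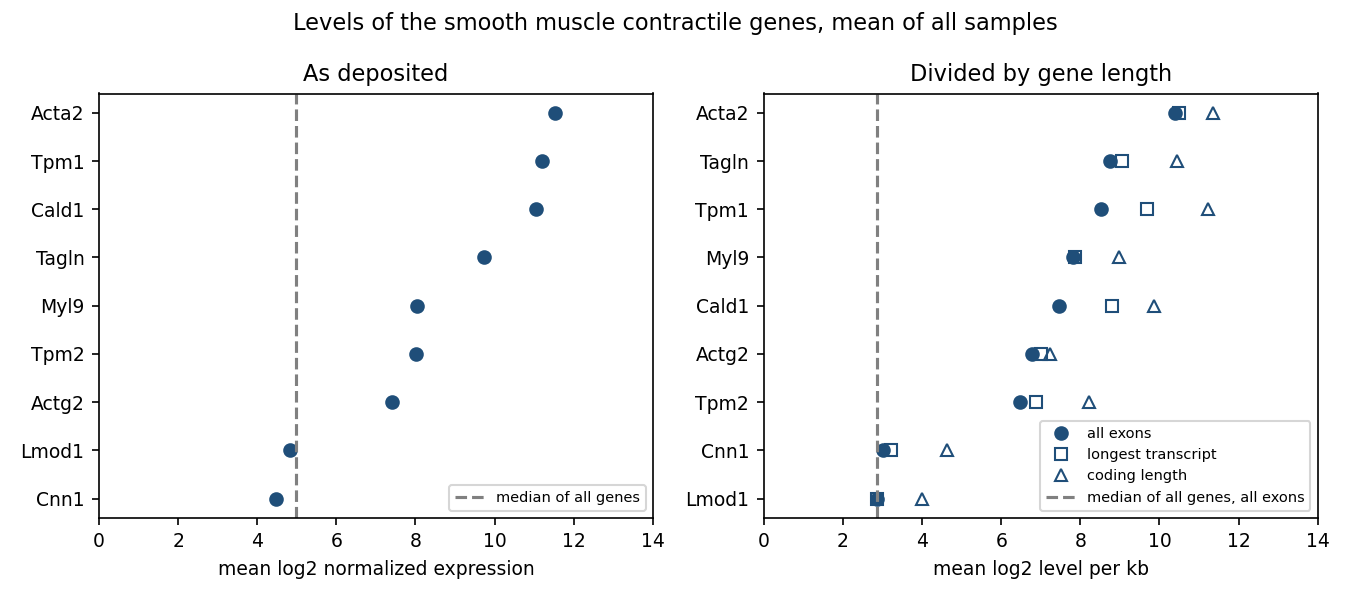
Mean level of the 9 contractile genes over all samples, on the log2 scale as deposited (left) and per kb (right), with dashed lines at the median of all genes and no error bars since each value is a single pooled mean. Points on the right are divided by all annotated exons (filled circles), by the longest transcript (squares) or by the coding length (triangles), and Acta2 is highest on all 3 while Cnn1 and Lmod1 are lowest.

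Of the other actin of smooth muscle, gamma actin of the enteric type encoded by Actg2 (chr6:83512905-83536265), the level was lower. The deposited mean was 7.42 and the level per kb was 6.78, at percentile 97.0 of all genes. Acta2 exceeded Actg2 by 3.62 on the log2 scale per kb. Set against the cytoplasmic actins, Acta2 was close to Actb, the abundant beta actin, which had 10.73 per kb. The difference of Acta2 from Actb was -0.34 by all exons, -0.71 by the longest transcript and -0.64 by coding length. Its spread over cultures cannot be given. Actg1, the cytoplasmic gamma actin, had 5.39 per kb, and 5.90 without its shared stretches, where Acta2 exceeded it by 4.49. Acta1, the actin of skeletal muscle, had -0.53 per kb and a deposited mean of 0.09, at percentile 0.902 of all rows. By these values Acta2 and Actb were the highest of the 5 actin genes with a value. They made up 42.0% and 53.2% of the summed level per kb of the 5, and Actg2 contributed 3.43%. These shares use the Actg1 level of 5.39, and whether reads without a unique place lower that level was not tested.

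Tagln encodes transgelin, also named SM22, a small protein that binds actin filaments. It lies on chr9:45929619-45936058. Its deposited mean was 9.73 and its level per kb was 8.74, at percentile 99.5. This level was 0.81 above that of Tagln2, the paralog known from many non-muscle cells, which had 7.93 per kb. On the opposite strand, the antisense gene Gm48529 covers 1241 exon bases of Tagln, or 62.4%, and Pcsk7, with a deposited mean of 5.44, covers 108 bases, or 5.43%. The library kit is stranded, but the strand setting of the count is not given in the sources used here, and a part of antisense reads in the Tagln value was not tested. Exons of the other 9 contractile genes overlap no other annotated gene.

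Tropomyosins wind along the actin filament and set which myosins and other proteins can reach it. Tpm1 (chr9:67022590-67049406) had a deposited mean of 11.21 and a level per kb of 8.51, at percentile 99.4. Tpm2 (chr4:43514711-43523765) had 8.003 as deposited and 6.46 per kb, at percentile 95.9. Tpm1 was thus above Tpm2 on the log2 scale per kb, by 2.05 with all exons, 2.80 with the longest transcript and 3.01 with coding length. Tpm4, which makes short tropomyosins of non-muscle cells, had 8.59 per kb, and 8.70 without the stretches it shares. Tpm1 minus Tpm4 was -0.08 by all exons, -0.19 without shared stretches, 1.04 by the longest transcript and 1.09 by coding length, so that their order turned with the length chosen. Tpm3 had 5.33 per kb, and 5.58 without the stretches it shares.

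Tpm1 makes both muscle and non-muscle proteins by alternative exons, and the value is a sum over them. GENCODE M21 lists 21 transcripts for Tpm1, against 6 for Tpm2 and 2 for Acta2. Cald1 (chr6:34598500-34775473), which encodes caldesmon, has 18 listed transcripts and likewise makes a long form in smooth muscle and a short form in other cells. Its deposited mean was 11.06 and its level per kb 7.47, at percentile 98.3. Values per gene cannot tell these forms apart. For Tpm1 and Cald1 the exons of all forms add up to 6485 and 12041 bases, whereas the longest transcripts have 2890 and 4777 bases. Divided by the longest transcript, Tpm1 had 9.68 and Cald1 had 8.80 per kb, above Tagln at 9.06 in the case of Tpm1 and above Myl9 at 7.86 in the case of Cald1.

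Myl9 encodes the regulatory light chain of myosin in smooth muscle, the protein that myosin light chain kinase phosphorylates. It lies on chr2:156775420-156781658. Its deposited mean was 8.03, and its level per kb was 7.81, at percentile 98.8. The non-muscle light chain Myl12a, 85.6% identical to Myl9 over the aligned coding bases, had 7.77 per kb, and Myl9 minus Myl12a was 0.05 by all exons, -0.70 by the longest transcript and -1.48 by coding length. Myl12b, the other non-muscle light chain, had a deposited mean of 6.46, and its length was not used because 2 annotated genes carry its name. Of the heavy chains, no value was found for Myh11 of smooth muscle. The non-muscle heavy chains Myh9 and Myh10 had 7.35 and 5.85 per kb. Mylk, which encodes the kinase, had a deposited mean of 4.21 and 0.71 per kb, at percentile 16.8 of all genes.

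Cnn1 and Lmod1, both known as markers of mature smooth muscle, had by far the lowest levels of the 9 genes. Cnn1 (chr9:22099216-22109630) encodes calponin 1, which holds back the myosin ATPase. It had a deposited mean of 4.47 and a level per kb of 3.02, at percentile 53.5. Lmod1 (chr1:135324807-135368065) encodes leiomodin 1, which starts new actin filaments. Its deposited mean was 4.83 and its level per kb was 2.85, at rank 6185 of 12368. Tmod3, a tropomodulin of non-muscle cells that caps actin filaments, had 4.08 per kb, and Lmod1 minus Tmod3 was -1.23 by all exons, -2.74 by the longest transcript and -3.49 by coding length. Per kb, Cnn1 and Lmod1 both lie at the middle of all genes, where the median was 2.85. As deposited, Cnn1 was at percentile 40.6 and Lmod1 at percentile 47.1, both under the median of 4.99. Between Tpm2, the next gene up, and Cnn1 there was a step of 3.45 on the log2 scale per kb, larger than any other step in the order of the 9 genes. The calponins that non-muscle cells express were much higher, with 8.76 per kb for Cnn2 and 7.10 for Cnn3, and Cnn1 minus Cnn2 was -5.75 and Cnn1 minus Cnn3 was -4.09. Cnn1 made up 1.40% of the summed level per kb of the calponins.

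**Figure D2:**
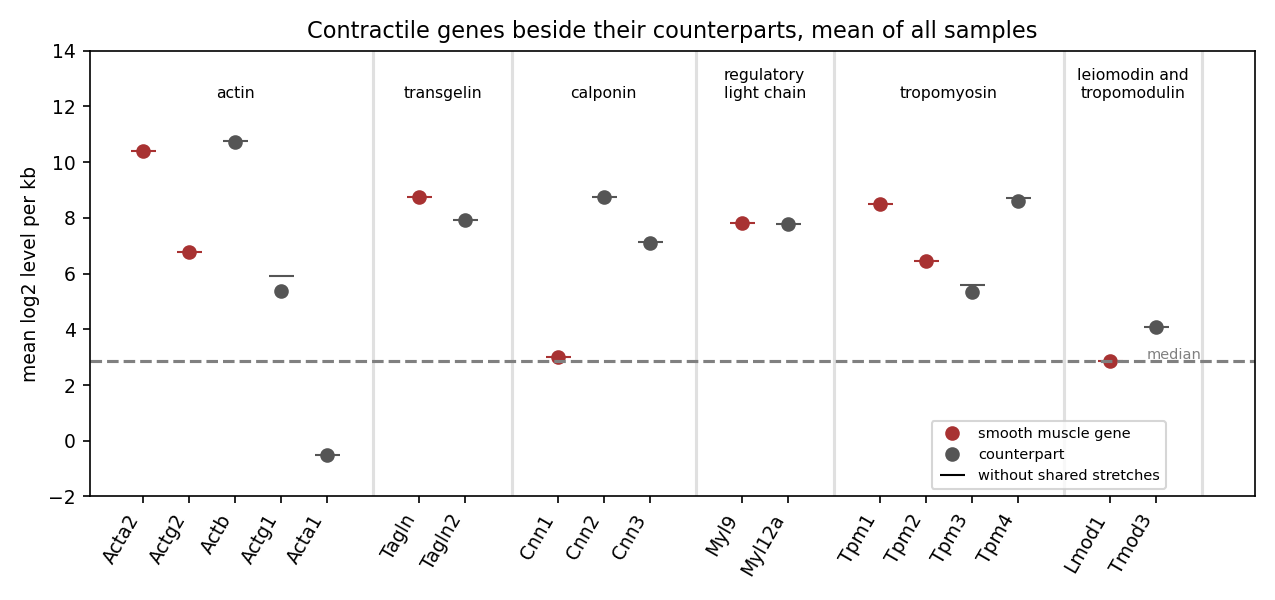
Level per kb (log2, mean of all samples, by all annotated exons) of the contractile genes in red and of related genes in grey, by family, with a short bar for the level without stretches shared with other genes and a dashed line at the median of all genes. Acta2 and Actb are both above 10, while Cnn1 at 3.02 lies under Cnn2 and Cnn3 and Actg1 shows the widest gap between point and bar.

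Ordered per kb, the levels ran from Acta2 at 10.39 through Tagln, Tpm1, Myl9, Cald1, Actg2 and Tpm2 to Cnn1 and Lmod1. Of the 9 genes, 7 were in the upper 10% of all genes per kb and 3, Acta2, Tagln and Tpm1, in the upper 1%. The median of the 9 genes was 7.47, against 2.85 over all 12368 genes with a length. Steps between neighbours were 1.65 from Acta2 to Tagln, 0.23 from Tagln to Tpm1, 0.70 to Myl9, 0.35 to Cald1, 0.69 to Actg2 and 0.32 to Tpm2. Cnn1 and Lmod1 were 0.17 apart. The spread between cultures is unknown, so whether neighbours in this order differ beyond it could not be tested. The order of Tagln and Tpm1 and of Myl9 and Cald1 turned with the longest transcript and with the coding length, and that of Actg2 and Tpm2 turned with the coding length.

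**Figure D3:**
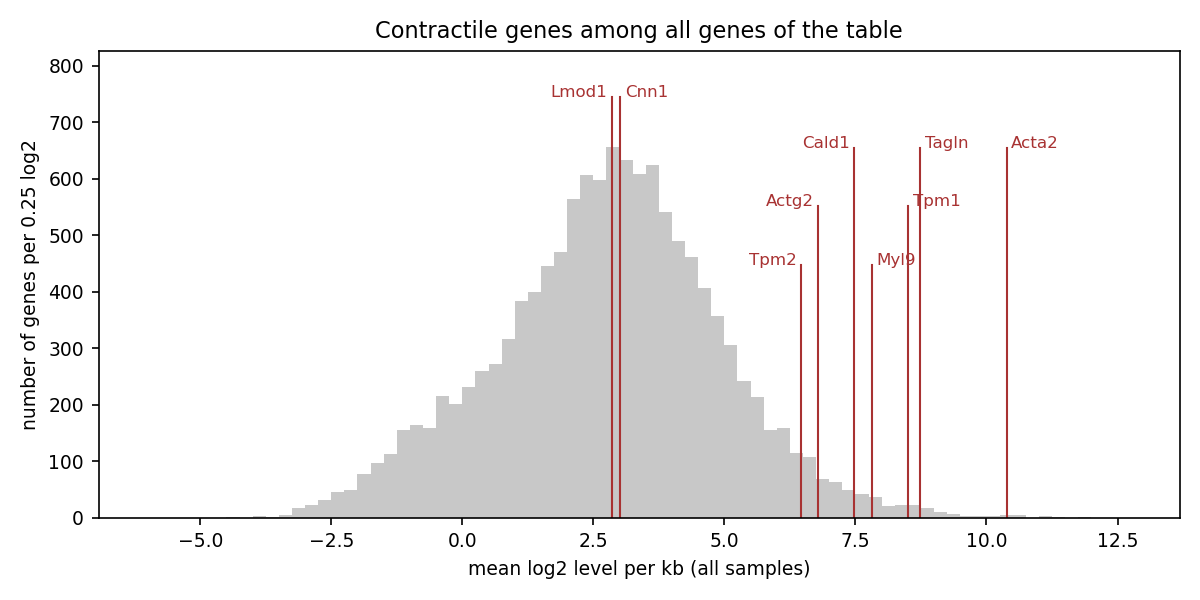
Number of genes by level per kb (log2, mean of all samples) for all 12368 genes with an annotated length, with the 9 contractile genes as red lines. A group of 7 genes from Tpm2 to Acta2 lies in the upper tail, and Lmod1 and Cnn1 lie at the centre.

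Other genes tied to smooth muscle spanned a wide range of levels. Of 20 such genes, a value was read for 14, with levels from -3.04 to 8.70 per kb and a median of 3.99. The highest were Flna (8.70), which crosslinks actin filaments, Csrp1 (8.27), a LIM protein of the cytoskeleton, and Actn1 (7.57), an actinin of stress fibres, all of which non-muscle cells are known to express as well. Smtn, which encodes smoothelin of contractile smooth muscle, had 3.94, at percentile 71.6, and Ppp1r12a, a subunit of myosin phosphatase, had 4.05, at percentile 73.4. The lowest levels were those of Synpo2 at -3.04 and Pgm5 at -1.58 per kb, both proteins of muscle attachment sites. For Des, Ppp1r14a, Kcnmb1, Pln, Casq2 and Itga8 no value was read. Non-muscle counterparts of the contractile genes had values for 13 of 15 genes, and their median of 7.42 per kb was near that of the contractile genes at 7.47. Genes of striated muscle had values for 6 of 31, with a median of 0.04 per kb, and the highest were the troponin gene Tnnt2 at 2.62, the atrial light chain Myl7 at 1.42 and the troponin gene Tnnc1 at 0.62.

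Of the regulators of this programme, a value was read for 21 of 23 genes, which does not by itself mean high expression. Their levels ran from -1.80 to 6.86 per kb, with a median of 4.48. Srf itself had 5.26, at percentile 88.9. The coactivators of the myocardin family had 4.78 for Mkl1 (also named Mrtfa) and 2.91 for Mkl2 (Mrtfb). For Myocd, the coactivator specific to heart and smooth muscle, no value was found. The highest regulators were Klf4 at 6.86, a repressor of smooth muscle genes, Tgfbr2 at 6.24, a receptor of transforming growth factor beta, and the LIM cofactor Fhl2 at 6.13. Of the ligands, Tgfb3 had 5.22, Tgfb2 had 3.50 and Tgfb1 had 2.14.

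The line was read for markers of stroma, mural cells, leukocytes and endothelial cells. No list of epithelial markers was read, so the values below do not bear on such cells. Of 16 markers of spleen stroma and fibroblasts, 14 had a value, with a median of 5.17 per kb, and the highest were Col1a1 (10.57), Col1a2 (8.84) and Cxcl12 (8.08). Tlx1 and Nkx2-3, transcription factors of spleen stroma, had 3.72 and 5.45. The lowest of the 14 were Pdgfra (1.92), a receptor of platelet-derived growth factor on many fibroblasts, and the transcription factors Wt1 (2.01) and Nkx2-5 (2.79), all under the median of all genes, and for Icam1 and Tcf21 no value was read. Mural cells, the pericytes and smooth muscle of vessels, express many of the same contractile genes. Of 8 mural markers 3 had a value, namely Mcam (2.61), Notch3 (0.28) and Cspg4 (-1.17), and none was read for Rgs5, Des, Abcc9, Kcnj8 or Higd1b. Leukocyte markers had a value in 1 of 14 genes (Cd68, 1.03 per kb) and endothelial markers in 3 of 8, namely Egfl7 (-0.18), Kdr (-0.34) and Pecam1 (-2.17). By level per kb, Acta2, Tagln, Tpm1, Cald1, Myl9, Actg2 and Tpm2 were high, whereas Cnn1 and Lmod1 lay at the middle of all genes. The values of Tpm1 and Cald1 also sum muscle and non-muscle forms. Whether these levels reflect a myofibroblast state was not tested.

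**Figure D4:**
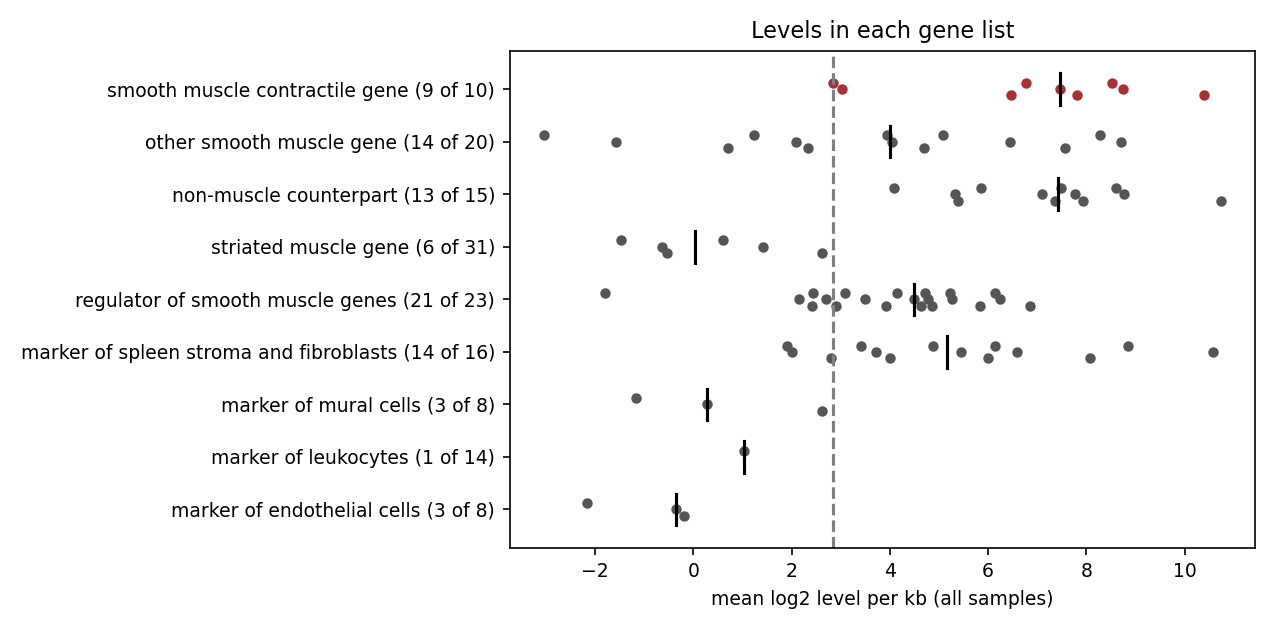
Level per kb (log2, mean of all samples) of the genes with a value in each list, 1 point a gene, with the median of the list as a bar and that of all genes as the dashed line. The counts beside the names give how many genes of the list had a value, of which Myl12b among the non-muscle counterparts is not plotted for want of a length, and 8 of the 9 contractile genes lie above the median of all genes.

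Because SRF acts through CArG boxes, the promoters of the contractile genes were read for them. RefSeq promoter windows on GRCm38.p6, from 250 bases before to 50 bases after a start, were found for 7 of the 10 genes, with 8 windows in all since Cald1 has 2. Tagln, Actg2 and Myh11 had no window and were not searched. An exact CArG box, searched on both strands of this palindromic motif, was present in 1 of the 8 windows, that of Myl9. The share over all 32851 windows was 1.63%. Allowing 1 mismatch at any place in the box, 5 of the 8 windows held a match, those of Myl9, Acta2, Tpm1, Lmod1 and the first of Cald1, against 21.1% of all windows. The windows of Tpm2 and Cnn1 and the second of Cald1 held none. These are matches of letters and no measurement of binding.

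The matches of Myl9, the gene with the exact box, and of Acta2, the gene with the highest level, are shown with 25 bases on either side and the matched letters in capitals, 5′ to 3′ along the gene.
Myl9 (chr2:156775278-156775337, plus strand, exact, 161 to 152 bases before the start): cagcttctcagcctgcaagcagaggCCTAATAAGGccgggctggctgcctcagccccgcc
Myl9 (chr2:156775340-156775399, plus strand, 1 mismatch, 99 to 90 bases before): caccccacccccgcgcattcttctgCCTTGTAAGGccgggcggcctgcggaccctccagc
Acta2 (chr19:34255423-34255482, minus strand, 1 mismatch, 84 to 75 bases before): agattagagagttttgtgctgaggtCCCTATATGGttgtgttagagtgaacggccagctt
Acta2 (chr19:34255373-34255432, minus strand, 1 mismatch, 34 to 25 bases before): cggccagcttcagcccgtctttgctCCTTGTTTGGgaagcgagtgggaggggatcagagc
Among the genes with a window, levels per kb of all exons and numbers of matches ran in the same order except for Lmod1. Acta2, Tpm1, Lmod1 and Myl9 each held 2 matches, with levels per kb of 10.39, 8.51, 2.85 and 7.81. Cald1, with 7.47, held 1 match in its first window and 0 in its second. Tpm2 and Cnn1, with none, had 6.46 and 3.02. By the longest transcript, Cald1 at 8.80 was above Myl9 at 7.86. Whether matches and levels are related was not tested. Short windows around 1 start do not cover introns or farther sites, and no match says only that these letters are not in the window.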

How the data were processed

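Per the labels, RNA was taken from cultures of the mouse line mSSC-YFP. The authors filtered reads by quality with FastQC, aligned them to mm10 with STAR 2.3.0e, kept uniquely mapped reads for gene counts (Rsubread, Ensembl annotation) and normalized these by trimmed means of M-values. The deposited table, with decimal commas that were converted here, gives 1 pooled mean per gene on a log2 scale. Its other columns, the authors' own comparison of BMS493 with DMSO (log2 fold change, t, p-value and adjusted p-value), were not used. The column used holds no depth and no value of a single library, so no test was run.

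Symbols were matched to GENCODE M21 (GRCm38, also named mm10), a later annotation than the authors': 11765 matched directly and 603 through a synonym. The level per kb is the deposited mean minus the log2 of the exon length in kb, with overlapping exons counted once. Percentiles give the share of genes below. Stretches of 100 bases were compared exactly, on both strands, with transcripts of genes at other places. Coding sequences were aligned with biopython 1.88 (Python 3.11.15). Alternatives were other lengths, other sets of rows and 1 mismatch in the CArG box. The scripts were tested on simulated data.

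The genes to be named were all 10 contractile genes and, of each list, the 3 highest per kb and the direct counterparts. Others named were chosen after their values were seen. Genes and lists were chosen with earlier results of these data known.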

Additional observations from a re-analysis of the deposited data

How the results depend on the processing

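No paired analysis was possible because no values of single cultures were analysed here. For the same reason leaving out replicates, filters on low values in a test and other pseudocounts were not run.

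By coding length the level per kb of 8 of the 9 genes moved by over 1.5 times, to 11.35 for Acta2, 11.24 for Tpm1, 10.45 for Tagln, 9.85 for Cald1, 8.98 for Myl9, 8.23 for Tpm2, 4.63 for Cnn1 and 3.99 for Lmod1. Coding length is shorter than exon length, so a rise follows from its construction. By the longest transcript 2 moved, to 9.68 for Tpm1 and 8.80 for Cald1. Without shared stretches, an alternative chosen after seeing the data, the levels of all 9 genes were unchanged. None of the 9 has a shared stretch, so this too follows from its construction. Percentiles of the deposited mean moved by less than 10 points for all 9 genes with other sets of rows. These sets were the rows matched to the annotation and the rows with a level of at least 1. The percentiles per kb given above were not varied in this way. With 1 mismatch the CArG box was found in 5 windows of the contractile genes in place of 1, and in 6936 of all windows in place of 535. No error of a level is given, since the pooled means carry neither the depth nor the spread of the libraries.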
